A study of Mus musculus with 6 samples.

Results

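Transcripts of tumor necrosis factor (TNF) ligands and receptors were examined in mouse bone marrow-derived macrophages with and without resolvin D1 (RvD1), over 9 genes chosen by symbol from a table of 38087 genes. The members were the ligand genes Tnf, Tnfsf15, Tnfsf9, Tnfsf8, Tnfsf12, Tnfsf13 and Tnfsf13b and the receptor genes Tnfrsf1a and Tnfrsf1b. Tnfsf15 was singled out because it had been seen in the RvD1 libraries alone, so its values are a description and carry no test. Donor mice were C57BL/6J males, 8 to 10 weeks old, whose marrow was cultured with M-CSF, the macrophage growth factor, at 10 ng/ml for 7 days and then without it for 24 h. The RvD1 group then received 10 nM RvD1 for 6 h, and the other group was untreated, with 3 libraries of poly-A RNA in each. No vehicle is described for the untreated cells. Whether a group's libraries stem from different animals or dishes is not stated, and the p-values therefore cover a spread that may be technical.

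RvD1 is a lipid mediator of the resolution of inflammation that is made from docosahexaenoic acid and acts on the receptor ALX/FPR2. TNF ligands are made as membrane proteins that act as trimers, on the cell or after release by proteases, and macrophages are a main source of TNF itself. TNF binds Tnfrsf1a, a receptor with a death domain found on most cells, and Tnfrsf1b, a receptor without one that is found mainly on leukocytes and endothelium. Their signals run through adaptor and kinase complexes to NF-kB, to MAP kinases or to cell death.

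Depth was estimated at 9.05 M to 14.3 M reads per untreated library and 11.2 M to 16.3 M per RvD1 library. Macrophage markers were abundant in every library. The summed level of 8 macrophage markers, among them Csf1r and Adgre1, was 16.59 to 16.97 (log2 normalized reads) in untreated and 16.65 to 17.01 in RvD1 libraries. Markers of other cell types were present as well. The summed level of 6 fibroblast markers was 15.24 to 15.46 in untreated and 15.09 to 15.73 in RvD1 libraries. Col1a1 and Col1a2 led it, followed by Col3a1 and Pdgfra. Dcn was lower (means 4.97 untreated and 5.51 RvD1), and Lum was near the floor (0.29, 0 and 0 untreated, 1.93, 0 and 0.99 RvD1). The sum of 6 endothelial markers was 9.47 to 9.62 and 9.41 to 10.48, with Cldn5 the lowest of them (means 1.54 and 1.47). Both sums were highest in RvD1 replicate 1. Neutrophil markers summed to 11.71 to 13.52 and 12.05 to 13.44, led by S100a9, Ngp and S100a8. Ly6g, Elane and Mpo were far lower, at means of 1.26, 2.94 and 4.46 in untreated and 3.20, 2.79 and 4.77 in RvD1 libraries. T cell markers summed to 6.09 to 6.96 and 6.01 to 7.31, led by Cd4 with Cd3e and Cd3g at 0 in every library, and B cell markers to 4.88 to 5.55 and 5.12 to 5.42, led by Cd79b with Ms4a1 at 0 in every library. In bulk RNA, fewer cells of a type and less RNA per cell cannot be told apart, and the part of these other cells in the values below was not tested.

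Promoter sequence is shown for 3 ligand genes that differ in level: Tnfsf15 and Tnfsf8, near the detection floor and neighbours on chromosome 4, and Tnf, which was well expressed. Windows of 250 bases before the RefSeq start of transcription (GRCm38.p6, the assembly also called mm10) were searched. GENCODE, which gives the gene positions below, starts Tnfsf15 and Tnfsf8 farther upstream, so 54 and 63 bases of their windows lie inside the GENCODE genes and are not shown. Sequences run 5′ to 3′, with capitals marking matches to 4 motifs searched on both strands. The kB motif was GGG, any 5 bases and then CC. The letters TGANTCA stood for the AP-1 motif, ACGTG for the core of the hypoxia response element, and the TATA box was searched as TATAAA.
Tnfsf15 (chr4:63745114-63745309, minus strand): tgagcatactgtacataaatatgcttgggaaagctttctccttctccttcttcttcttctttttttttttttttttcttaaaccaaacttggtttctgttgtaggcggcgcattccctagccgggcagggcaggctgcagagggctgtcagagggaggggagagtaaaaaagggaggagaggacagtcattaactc
Tnfsf8 (chr4:63861348-63861534, minus strand): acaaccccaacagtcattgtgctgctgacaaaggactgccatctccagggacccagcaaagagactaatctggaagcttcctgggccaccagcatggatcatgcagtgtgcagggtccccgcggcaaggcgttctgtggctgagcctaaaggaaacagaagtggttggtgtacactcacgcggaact
Tnf (chr17:35202008-35202257, minus strand): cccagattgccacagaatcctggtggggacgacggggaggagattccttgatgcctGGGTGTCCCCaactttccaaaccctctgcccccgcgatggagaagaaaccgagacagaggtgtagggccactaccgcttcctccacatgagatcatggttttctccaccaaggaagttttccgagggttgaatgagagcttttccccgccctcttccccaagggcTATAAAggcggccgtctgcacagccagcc
The Tnf window held a kB match that begins 194 bases before the RefSeq start and a TATA match that begins 29 bases before it. The Tnfsf15 and Tnfsf8 windows held 0 matches to these letters. Of 32851 promoter windows of the same length in the RefSeq table, 45.8% held the kB letters, 6.75% the AP-1 letters, 16.6% the hypoxia core and 12.4% the TATA letters, so a match is a description and not a site. The table held a promoter for 7 of the 9 members. The kB letters were also present in the windows of Tnfsf13, Tnfrsf1a and Tnfrsf1b. The AP-1 letters were present in the window of Tnfsf13 and in a window of Tnfsf13b (10006383 to 10006632). The Tnfrsf1a window (125349473 to 125349722) lies wholly inside the GENCODE gene. Most of the Tnfsf13 window (69685555 to 69685804) and of that Tnfsf13b window also lie inside the GENCODE genes.

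Tnfsf15 encodes TL1A, a ligand of the death-domain receptor Tnfrsf25 that costimulates T cells (chromosome 4, 63727084 to 63745113, minus strand, mm10, protein-coding). It was listed at 0 in untreated replicates 1, 2 and 3, and at 1.93, 2.77 and 1.99 in RvD1 replicates 1, 2 and 3 (log2 normalized reads). All 3 RvD1 libraries were thus above all 3 untreated ones, as the choice of this gene had fixed. In reads the signal was small. From the value that 1 read takes in each library, the RvD1 levels correspond to 5, 6 and 4 reads, 15 in all out of 40.2 M estimated reads. A value of 0 means a normalized read number of 1 or less. In untreated replicates 1 and 3, where 1 read is worth 1.22 and 1.41, it leaves no whole read, but in untreated replicate 2, where 1 read is worth 0.885, it could hide 1. No fold is given against a group listed at 0.

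The table held 18 genes listed at 0 in every untreated library and above 0 in every RvD1 library, 11 of them with a gene name rather than a clone or model number, and 31 genes with the reverse pattern. Of the 18, Tnfsf15 had the highest mean in the RvD1 libraries (2.23 ± 0.46, SD, n = 3). The next named gene was Ppp1r3c, which encodes a glycogen-targeting subunit of protein phosphatase (1.93, 1.77 and 1.99). As the gene was chosen for this pattern, its place in the list is a description only.

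The 5 tested genes whose values followed Tnfsf15 most closely over the 6 libraries were Dpy19l4, Spin1, Asb3, Hivep2 and Galnt1, with Pearson r between 0.996 and 0.999. Dpy19l4, the closest, stood at 9.50, 9.50 and 9.48 in untreated and 9.80, 9.90 and 9.80 in RvD1 libraries. They are the highest among all tested genes with a name, rest on 6 points that share their libraries, and are a description only.

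Tnfsf8 encodes CD30 ligand, which signals to activated lymphocytes, and lies 86194 bases from Tnfsf15 on the same strand with 0 annotated genes of the table between them (chromosome 4, 63831308 to 63861347). It was listed at 0.29, 0 and 0 without RvD1 and at 0.61, 1.77 and 0.99 with it. These values correspond to 1, 0 and 0 reads against 2, 3 and 2, where the 0 of untreated replicate 2 could again hide 1 read. Above 0 in 1 untreated library, the gene entered the test through the RvD1 libraries, in which it is higher. The groups did not overlap, which was also so for 25.4% of all tested genes (12.6% with RvD1 higher and 12.8% with RvD1 lower), and the difference did not pass the test (1.03 on the log2 scale, 95% interval -0.05 to 2.11; limma adjusted p = 0.270).

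Tnfsf13b encodes BAFF, a survival factor for B cells that myeloid cells supply (chromosome 8, 10006467 to 10039072, plus strand). It was at 0, 0.82 and 2.08 in untreated and at 0.30, 2.30 and 2.92 in RvD1 libraries. The groups overlapped widely, and no library held more than 7.61 estimated reads. The difference of 0.87 had a 95% interval of -0.87 to 2.61 (log2; limma adjusted p = 0.573), or 0.547-fold to 6.12-fold, so that a rise of several fold lies within it at this depth. The plot of estimated reads shows these 3 ligands side by side.

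**Figure D1:**
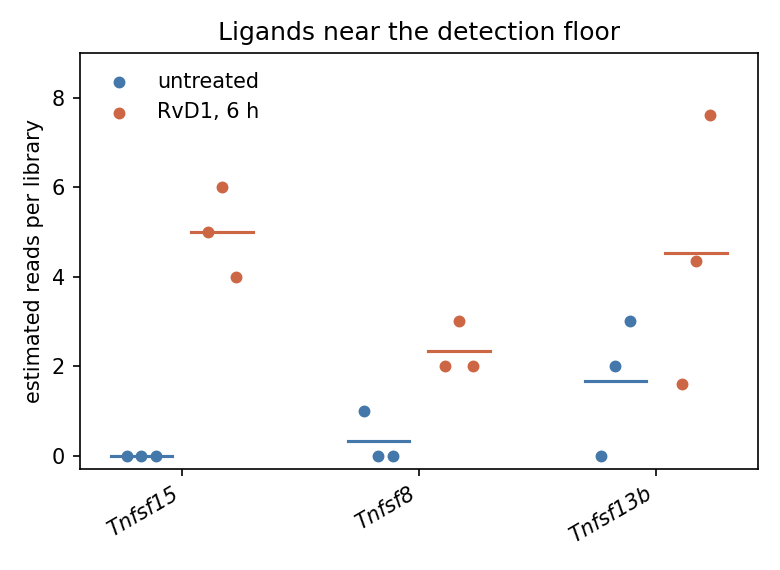
Estimated reads per library (vertical axis) of Tnfsf15, Tnfsf8 and Tnfsf13b in 3 untreated (blue) and 3 RvD1 (orange) libraries, with points for libraries and bars for means. Tnfsf15 sits at 0 in untreated libraries, where a value of 0 in replicate 2 could hide 1 read (as for Tnfsf8), and at 5, 6 and 4 in RvD1 libraries, while Tnfsf13b overlaps between groups.

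Tnf, the founding inflammatory cytokine of the family (chromosome 17, 35199381 to 35202007, minus strand), was at 7.28, 7.55 and 7.58 without RvD1 and at 7.47, 7.66 and 7.30 with it. The ranges of the groups lay over each other, and 127 to 231 estimated reads stood behind each value. The log2 difference was 0.01 (SE 0.13, 95% interval -0.28 to 0.29, or 0.825-fold to 1.23-fold; limma adjusted p = 0.978). The interval is narrow beside those of the rarer ligands. The genes that followed Tnf most closely over the 6 libraries were Gpam, Tmem190, Mettl15, Lancl3 and Fgfr1op (Pearson r 0.973 to 0.990). Gpam, an enzyme of triglyceride synthesis, was the closest.

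Tnfsf9 encodes 4-1BB ligand, a costimulator of T cells (chromosome 17, 57105325 to 57107757, plus strand). It was at 4.87, 5.32 and 5.63 in untreated and at 5.88, 5.40 and 5.67 in RvD1 libraries. RvD1 replicates 1 and 3 lay above every untreated library, while replicate 2 lay inside the untreated range. The difference was 0.38 (SE 0.23, 95% interval -0.14 to 0.89; limma adjusted p = 0.401). An antisense lincRNA, Gm11110, overlaps the gene and reached 4.34, and whether reads were counted by strand is not given in the sources used here.

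Tnfsf12 encodes TWEAK, a ligand that acts through Tnfrsf12a (chromosome 11, 69686250 to 69695849, minus strand). It was at 8.79, 9.03 and 9.21 in untreated and at 8.87, 8.66 and 9.04 in RvD1 libraries, a difference of -0.15 (SE 0.13, 95% interval -0.44 to 0.13; limma adjusted p = 0.542). Tnfsf13 encodes APRIL, a plasma cell survival factor, and lies just downstream (69682846 to 69685784). It was at 6.06, 6.11 and 5.87 in untreated and at 5.82, 6.15 and 5.99 in RvD1 libraries, a difference of -0.03 (SE 0.15, 95% interval -0.36 to 0.30; limma adjusted p = 0.939). The groups overlapped for both.

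Both genes lie inside another gene, Tnfsfm13, whose transcripts join them (69682577 to 69696098, deposited as BC096441). Reads of the shared exons cannot be assigned to 1 gene with certainty, so the levels of Tnfsf12 and Tnfsf13 are uncertain. The joined gene had means of 8.24 ± 0.18 (untreated) and 8.14 ± 0.13 (RvD1; log2, SD, n = 3; difference -0.10, 95% interval -0.35 to 0.15; limma adjusted p = 0.669). It took 33.9% to 34.6% of the normalized reads of the 3 genes in untreated and 33.7% to 36.1% in RvD1 libraries, and these ranges overlap.

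Tnfrsf1a, the death-domain receptor for TNF (chromosome 6, 125349362 to 125362484, plus strand), was at 10.92, 11.07 and 11.09 in untreated and at 10.92, 10.86 and 10.97 in RvD1 libraries. Untreated replicate 1 lay within the range of the RvD1 libraries, and the other two untreated libraries lay above all of them. The difference was -0.11 (SE 0.06, 95% interval -0.25 to 0.03; limma adjusted p = 0.373). Tnfrsf1b, the receptor typical of leukocytes (chromosome 4, 145213463 to 145246870, minus strand), was at 12.29, 12.70 and 12.78 in untreated and at 12.42, 12.75 and 12.77 in RvD1 libraries. Replicate 1 was the lowest of its group in both, and the groups overlapped (difference 0.06, SE 0.14, 95% interval -0.26 to 0.37; limma adjusted p = 0.859).

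**Figure D2:**
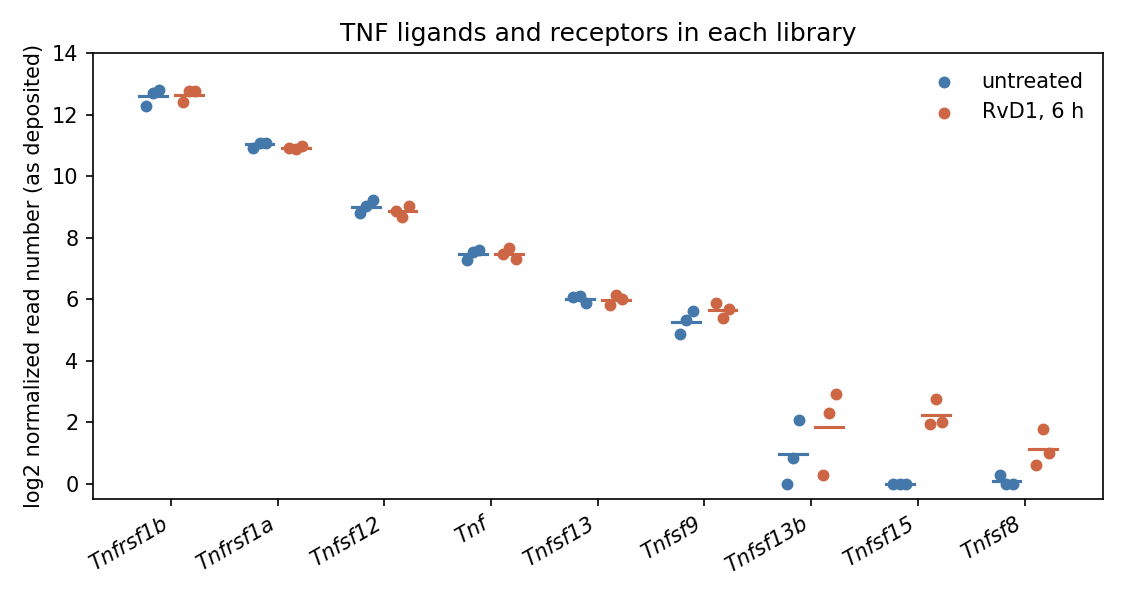
Deposited log2 normalized read number (vertical axis) of the 9 genes in 3 untreated (blue) and 3 RvD1 (orange) libraries, with points for libraries and bars for means. The 2 receptors are highest and overlap between groups, and Tnfsf15 is at 0 in untreated and between 1.93 and 2.77 in RvD1 libraries.

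Levels of different genes were compared per kilobase of the longest annotated transcript. In untreated libraries the mean log2 level per kb was highest for Tnfrsf1b (10.66), then Tnfrsf1a (9.92), Tnfsf12 (8.49), Tnf (6.76), Tnfsf13 (5.43) and Tnfsf9 (4.90). The order was the same in RvD1 libraries, at 10.71, 9.81, 8.34, 6.76, 5.40 and 5.28. Tnfsf13 and Tnfsf9 overlapped per kb among the RvD1 libraries (5.24 to 5.56 and 5.03 to 5.51), and in the untreated libraries they were apart by less than their spread (lowest 5.28 against highest 5.26). Tnfsf13b, Tnfsf8 and Tnfsf15 were far lower, and their order is not resolved at this depth. The excess of Tnfrsf1b over Tnfrsf1a per kb was 0.55, 0.80 and 0.87 without RvD1 and 0.68, 1.06 and 0.97 with it, overlapping between groups.

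Of the 8 members other than Tnfsf15, all 8 were tested, 0 rose and 0 fell (limma over 18899 genes, where 1.12% passed at an adjusted p under 0.05, 0.561% higher and 0.556% lower), and 0 had an unadjusted p under 0.05 (19.9% of all tested genes, 10.3% higher and 9.65% lower). With so low a share of calls among all genes, 0 of 8 says little about the family. Without Tnfsf8, which entered through the RvD1 libraries, 4 differences were positive and 3 negative, with a median of 0.01 against 0.00 over all tested genes (log2), and 0 of the 7 had groups that did not overlap (25.4% of all tested genes). The 3 negative differences, of Tnfsf12, Tnfsf13 and Tnfrsf1a, turned positive (0.03, 0.05 and 0.01) once values were adjusted for transcript length and GC content. Tnfsf8 and Tnfsf13b entered the test with few reads, so their intervals are wide, as the plot of the 8 differences shows.

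**Figure D3:**
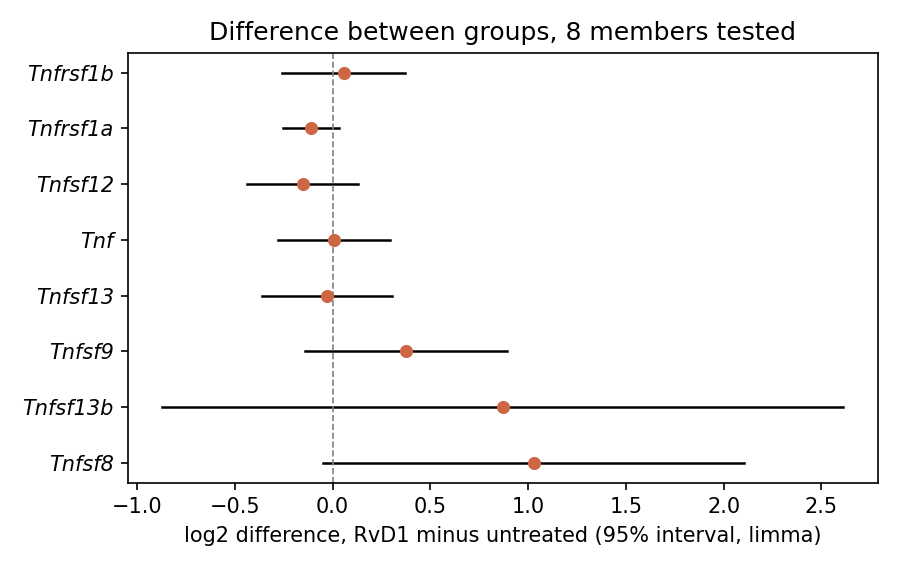
Log2 difference between RvD1 and untreated libraries (horizontal axis, points) with its 95% interval from limma (lines) for the 8 members tested, 3 libraries per group. Every interval includes 0, and those of Tnf and the 2 receptors are far narrower than those of Tnfsf8 and Tnfsf13b.

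The receptors of the ligands were examined next. Tnfrsf25, the receptor of Tnfsf15, was near the floor at 2.44, 1.11 and 0 in untreated and 1.87, 1.26 and 0.99 in RvD1 libraries, and these overlapped. Tnfrsf9, the 4-1BB receptor of Tnfsf9, was at 2.55 ± 1.29 and 2.76 ± 0.18, and Tnfrsf8, the CD30 receptor of Tnfsf8, at 2.69 ± 0.49 and 2.79 ± 0.19 (log2, SD, n = 3). Tnfrsf12a, the TWEAK receptor, was high, at 11.00 ± 0.15 and 10.81 ± 0.14 (difference -0.19, 95% interval -0.40 to 0.02, limma adjusted p = 0.304). After the length and GC adjustment its difference was 0.01 (limma adjusted p = 0.988). Of the receptors for BAFF and APRIL, Tnfrsf13b was at 8.15 ± 0.13 and 8.31 ± 0.08 (difference 0.16, -0.04 to 0.37; limma adjusted p = 0.365). Tnfrsf17 was listed at 0 in every library, and Tnfrsf13c at 1.29 in untreated replicate 1 and 0 in the other 5.

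Of 11 further TNF ligands, 4 were listed at 0 in every library (Lta, Cd40lg, Fasl and Cd70). Of the 7 tested, 0 passed, the unadjusted p was under 0.05 for 3 higher and 0 lower genes (all tested genes 19.9%), and the median difference was 0.01 (all genes 0.00). The smallest p belonged to Tnfsf11, the osteoclast factor RANKL, at 4.53, 4.87 and 5.25 in untreated and 6.24, 5.43 and 5.37 in RvD1 libraries (difference 0.80, 95% interval 0.16 to 1.43; limma adjusted p = 0.169). RvD1 replicate 1, its highest library, was also the one with the highest fibroblast and endothelial marker sums given above, and their part was not tested.

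Of 26 further receptors of the superfamily, 23 were tested, 0 passed, the unadjusted p was under 0.05 for 5 higher genes and 1 lower gene (19.9% over all tested genes), and the median was 0.10. The smallest p belonged to Ngfr, the low-affinity neurotrophin receptor, at 1.87, 2.15 and 1.5 in untreated and 3.93, 3.35 and 3.31 in RvD1 libraries (difference 1.69, 95% interval 0.94 to 2.45; limma adjusted p = 0.0547). Its groups were apart, as were those of 7 of the 23 (25.4% of all tested genes). Cd27, at 1.33, 0 and 0 in untreated and 2.42, 2.50 and 2.08 in RvD1 libraries, is among these 7 and among the 5 higher genes. Cd27 entered the test through the RvD1 libraries, in which it is higher. Ngfr levels were low, and with 8 added to each normalized value the difference was 0.76. RvD1 replicate 1 was its highest library, as for Tnfsf11, and the part of other cells was not tested.

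TNF and its receptors are released from the cell surface by the protease Adam17, whose inhibitor is Timp3. Of 10 genes of shedding, 0 passed, the unadjusted p was under 0.05 for 2 higher and 2 lower genes (19.9% over all tested genes), and the median was 0.03. Adam17 was at 11.03, 11.20 and 11.20 in untreated and 11.26, 11.47 and 11.41 in RvD1 libraries (difference 0.23, 95% interval 0.07 to 0.40, limma adjusted p = 0.135). After the length and GC adjustment its difference was 0.13 (limma adjusted p = 0.504). Timp3 had the smallest p, at 13.88, 13.56 and 13.43 against 14.20, 14.11 and 13.94 (difference 0.46, 95% interval 0.19 to 0.73, limma adjusted p = 0.0879). Adjusted for length and GC, the difference of Timp3 was 0.37 (limma adjusted p = 0.269). For Adam17 and Timp3 the groups were apart, as in 5 of the 10 (25.4% of all tested genes).

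Of 28 genes of the receptor signalling complexes, 1 rose, 0 fell and 27 did not pass, where 1.12% of all tested genes passed. The unadjusted p was under 0.05 for 5 higher and 3 lower genes (all tested genes 19.9%), and the median was -0.02. The gene that rose was Map3k5, which encodes ASK1, a stress kinase upstream of JNK and p38. It was at 7.84, 8.02 and 7.97 in untreated and at 8.32, 8.35 and 8.44 in RvD1 libraries, a rise of 1.35-fold (95% interval 1.19 to 1.53; limma adjusted p = 0.0478). The call lay close to the threshold and ended after the adjustment for length and GC (0.38, SE 0.08; limma adjusted p = 0.124), and without any 1 library other than RvD1 replicate 1. The other alternatives that end it are given with the sensitivity of the results.

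Of 29 genes that respond to TNF and NF-kB, 27 were tested, 0 passed, and the unadjusted p was under 0.05 for 8 higher and 0 lower genes, while 10.3% of all tested genes were higher and 9.65% lower at that threshold. Their median was 0.16, with 20 positive and 7 negative. The smallest p belonged to Tnfaip3, which encodes A20, a brake on TNF signalling. It was at 9.27, 9.24 and 9.22 in untreated and 9.47, 9.48 and 9.50 in RvD1 libraries (difference 0.24, interval 0.12 to 0.37, limma adjusted p = 0.0710). After the length and GC adjustment the difference of Tnfaip3 was 0.13 (limma adjusted p = 0.343). Of 12 factors that govern decay and translation of Tnf mRNA, 0 passed, the unadjusted p was under 0.05 for 4 higher and 2 lower genes (19.9% over all tested genes), and the median was 0.02. Tia1, a silencer of Tnf translation, had the smallest p (difference 0.27, interval 0.11 to 0.43, limma adjusted p = 0.0913). Adjusted for length and GC, the difference of Tia1 was 0.11 (limma adjusted p = 0.545). The plot of the 6 lists shows that 1 of 107 tested genes passed, beside 1.12% of all genes.

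**Figure D4:**
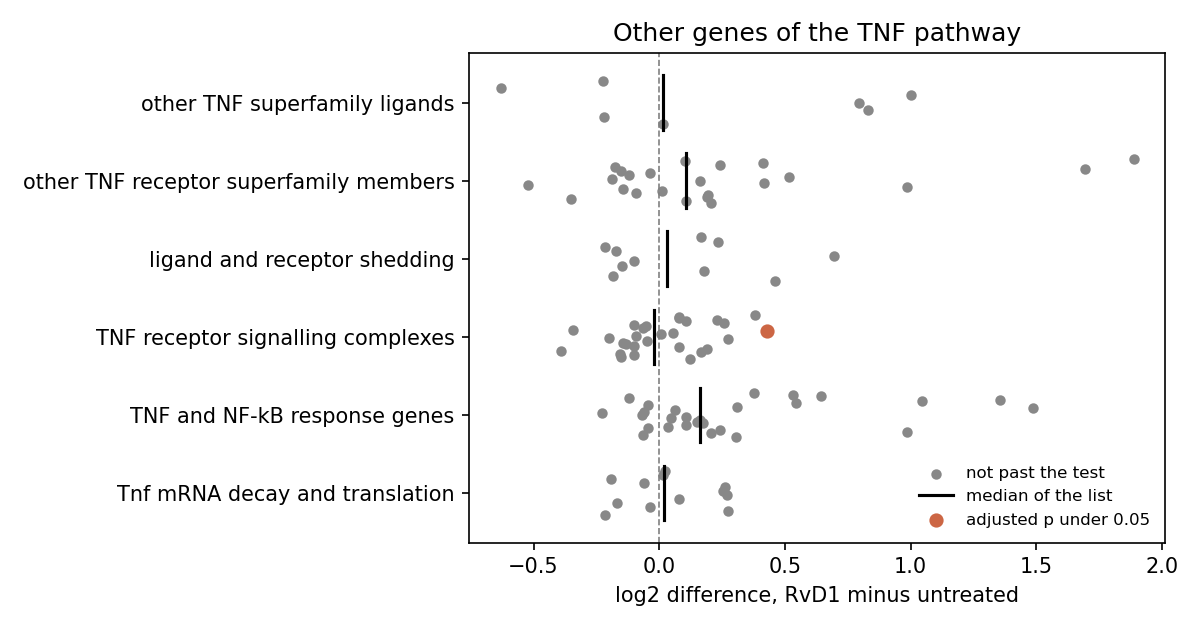
Log2 difference between RvD1 and untreated libraries (horizontal axis) for each tested gene of 6 lists of the TNF pathway, with black bars for list medians and an orange point for the 1 gene past the test. That gene is Map3k5 of the signalling complexes, and the list medians lie between -0.02 and 0.16.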

How the data were processed

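The 6 libraries were poly-A selected, with 100 to 400 ng of total RNA as input, per the labels' protocols. The submitters' processing notes list TopHat2 2.0.7 and mm10. For the read counter, annotation, strand setting and normalization the sources used here give nothing. The authors deposited 1 table, whose columns are marked as normalized per the file headers. No source names its scale, and it was taken as log2 normalized read numbers per gene. This was checked on the values: none lay below 0, and antilogs summed to 12.4 M to 12.8 M in every library. Low values fell on steps worth 1 read, from which reads and depth were estimated. Only 40.8% to 51.4% of values up to 20 reads lay within 0.02 of a whole number, so no count test was run.

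Differences were tested with limma 3.58.1 in R 4.3.3 (two-sided, variance trend, 4 residual and 4.62 prior degrees of freedom) on 18899 genes (those with values over 0 in 3 or more libraries), with Benjamini-Hochberg adjustment over all of them and a threshold of 0.05. The procedure was tested on libraries simulated from the observed levels with independent noise of fixed size. These held no length, GC or replicate effects, so that test cannot judge the choices about them. Members, gene lists and tests were chosen with earlier results of these data known. All members were named, with the receptors of the ligands, Adam17, the genes of each list past the test (or that with the smallest p) and the 5 genes most like Tnfsf15 and Tnf. Gene positions and transcript lengths came from GENCODE M21 on mm10, which held 36308 of the 38087 identifiers. The length and GC correction used splines with 4 knots. Other software was Python 3.11.15, numpy 2.4.6, pandas 2.3.3 and matplotlib 3.10.9.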

Additional observations from a re-analysis of the deposited data

How the results depend on the processing

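In all 15 alternatives, 0 of the members other than Tnfsf15 passed in limma, while 0 to 2 of them had an unadjusted p under 0.05. A filter on a mean log2 level of at least 1 left out Tnfsf8. Small differences changed sign. Adjusted for length and GC, with or without a replicate block, they were 0.029 for Tnfsf12, 0.051 for Tnfsf13, 0.014 for Tnfrsf1a and 0.0064 for Tnfrsf12a, and adding 8 to each normalized value gave -0.00063 for Tnfrsf9. Without 1 library the differences ranged from -0.087 to 0.097 for Tnf, -0.11 to 0.053 for Tnfsf13, -0.093 to 0.17 for Tnfrsf1b, -0.40 to 0.82 for Tnfrsf25, -0.37 to 0.91 for Tnfrsf9 and -0.17 to 0.31 for Tnfrsf8. With no change of sign they ranged from 0.33 to 1.64 for Tnfsf13b, 0.18 to 0.55 for Tnfsf9, -0.26 to -0.054 for Tnfsf12, 0.52 to 0.98 for Tnfsf11, -0.27 to -0.11 for Tnfrsf12a and 0.091 to 0.23 for Tnfrsf13b. Over all genes the 211 calls of limma became 2 with no filter, 1 without the variance trend and 35 adjusted for length and GC. They became 5, 3 and 0 without untreated replicate 1, 2 or 3, and 451, 0 and 0 without RvD1 replicate 1, 2 or 3, where 3045, 2623 and 3203 genes had an unadjusted p under 0.05 in the settings with 0 calls. The call of Map3k5, the 1 call among signalling complexes, ended with no filter (limma adjusted p = 0.153), with median centring (0.0560), without the trend (0.182) and adjusted for length and GC (0.124), leaving 0 calls in that list. Without 1 library the list had 0 to 1 calls. The limma adjusted p of Map3k5 was 0.123, 0.150 and 0.134 without untreated replicate 1, 2 or 3, and 0.0497, 0.175 and 0.145 without RvD1 replicate 1, 2 or 3. The cause was not tested.

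Whether the replicate numbers of the titles pair the samples is not settled by the values, and the main test did not pair them. Same-numbered libraries had correlations of 0.306, -0.0806 and 0.420 in their deviations from the group means. In both groups replicates 1 and 3 correlated best with their own number, and replicate 2 did not. With a replicate block 1896 genes were called, and 746 when length and GC were adjusted for as well. Calls in the lists under the block were 5 for other receptors, 3 for shedding, 7 for signalling, 5 for response genes and 5 for mRNA decay, and 2, 1, 1, 2 and 1 with both changes, while other ligands gave 0. Of the named genes, the block added Timp3 (limma adjusted p = 0.0043), Ngfr (0.024), Adam17 (0.015), Tnfrsf12a (0.029), Tnfaip3 (0.030) and Tia1 (0.041). With both changes Timp3 (0.0056) and Ngfr (0.030) still passed, and the rest of these did not. Map3k5 passed in both settings (0.015 and 0.028). Tnfsf11, Tnfrsf25, Tnfrsf9, Tnfrsf8 and Tnfrsf13b passed in neither. Depth limits Tnfsf15, Tnfsf8 and Tnfsf13b, each with under 10 estimated reads in every library.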
